A study of Mus musculus with 31 samples.

Results

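Whole mesothelioma tumours grown in the peritoneal cavity were compared with whole tumours grown under the skin. The comparison takes in 10 of the 31 libraries of the study, chosen by the site and sample type in their labels: 5 of peritoneal tumours and 5 of subcutaneous tumours. Both groups were grown from AB1-mCherry, a murine mesothelioma line that carries a red fluorescent protein and had been sorted for its brightest cells before culture. The hosts of both groups were untreated female BALB/c mice aged 12 weeks, and the tumours were collected on day 10. AB1 comes from the same mouse strain, and the labels name no immune deficiency of the hosts. The line was inoculated and did not arise in the serosa. Each sample title names a mouse by number, and the labels say no more on pooling. Further libraries of the study serve here only for side by side values: 6 of pleural tumours, and 5 peritoneal and 5 subcutaneous samples of cancer cells, which were gated on mCherry and on the absence of CD45. Mesothelin (Msln), a surface protein that mesothelioma cells carry, was at 164 to 212 TPM in peritoneal tumours and at 188 to 237 TPM in subcutaneous tumours, so the labelled tumour type was matched by its marker in all 10 libraries.

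The peritoneal cavity is lined by mesothelium, a flat epithelium that expresses keratins, the transcription factor Wt1 and the retinaldehyde dehydrogenase Aldh1a2. Its fluid holds resident macrophages that depend on retinoic acid made by the lining cells, and B cells that secrete natural antibodies. The subcutis is loose connective tissue of fibroblasts, collagen and fat over a sheet of skeletal muscle. A tumour at either site contains cancer cells, host stroma and leukocytes, and in RNA from a whole tumour fewer cells of a type and less RNA per cell cannot be told apart.

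Values are TPM, the transcript share of a gene scaled to a fixed library total, which corrects for transcript length and library total. Values of single libraries are listed in the order of replicates 1, 2, 3, 4 and 7 for peritoneal tumours and 1 to 5 for subcutaneous tumours, the numbers of the mouse names. Genes named for the largest log2FC were taken from called genes whose groups did not overlap, so for them the direction and the lack of overlap follow from that choice. A log2 fold change (log2FC) is the peritoneal minus the subcutaneous mean of log2(TPM + 1), so it understates the ratio of transcripts near or below 1 TPM. A gene was called when its Benjamini-Hochberg adjusted p, from limma over all genes tested, was below 0.05, and only called genes are said to have risen or fallen in peritoneal tumours. Unless another tool is named, every adjusted p is from that fit.

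Correlations between libraries on the log2 scale were 0.977 to 0.985 within the peritoneal group, 0.983 to 0.991 within the subcutaneous group and 0.958 to 0.978 between them. The number of genes at 1 TPM or more was 14551 ± 184 in peritoneal tumours and 14315 ± 180.1 in subcutaneous tumours (SD, n = 5 each; two-sided exact permutation p = 0.0794, adjusted p = 0.155 over 3 measures). The share of mitochondrial genome transcripts was 4.87 ± 0.586% against 5.18 ± 0.68% (exact p = 0.46). The smallest p that 5 libraries against 5 allow in this test is 0.00794. Antibody genes made up 0.0656 to 0.534% of TPM in peritoneal tumours, most in replicate 2, against 0.0098 to 0.0225% in subcutaneous tumours. Skeletal muscle genes made up 0.0017 to 0.00193% in peritoneal tumours, against 0.00857 to 0.153% in subcutaneous tumours, most in replicate 2, the library that stood farthest from the others on the first principal component.

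Of 15054 genes tested, 1831 were called (12.2%), 1283 of them higher in peritoneal tumours (8.52%) and 548 lower (3.64%). The median log2FC of all genes tested was 0.067. At 2-fold or more 132 genes were higher and 134 lower, and at 4-fold or more 54 were higher and 39 lower. The higher set of 132 held 49 antibody genes, and the lower set of 134 held 15 skeletal muscle genes. The groups did not overlap in 1888 genes (12.5%). Leaving out subcutaneous replicate 2 gave 934 called genes, and leaving out peritoneal replicate 1, 2 or 3 or subcutaneous replicate 5 gave 1145, 985, 1206 and 1153. Of the called genes 70.1% were higher, against 42.4% (638 higher, 868 lower) with median-of-ratios scaling and 48.2% (729 higher) with quantile normalization.

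**Figure D1:**
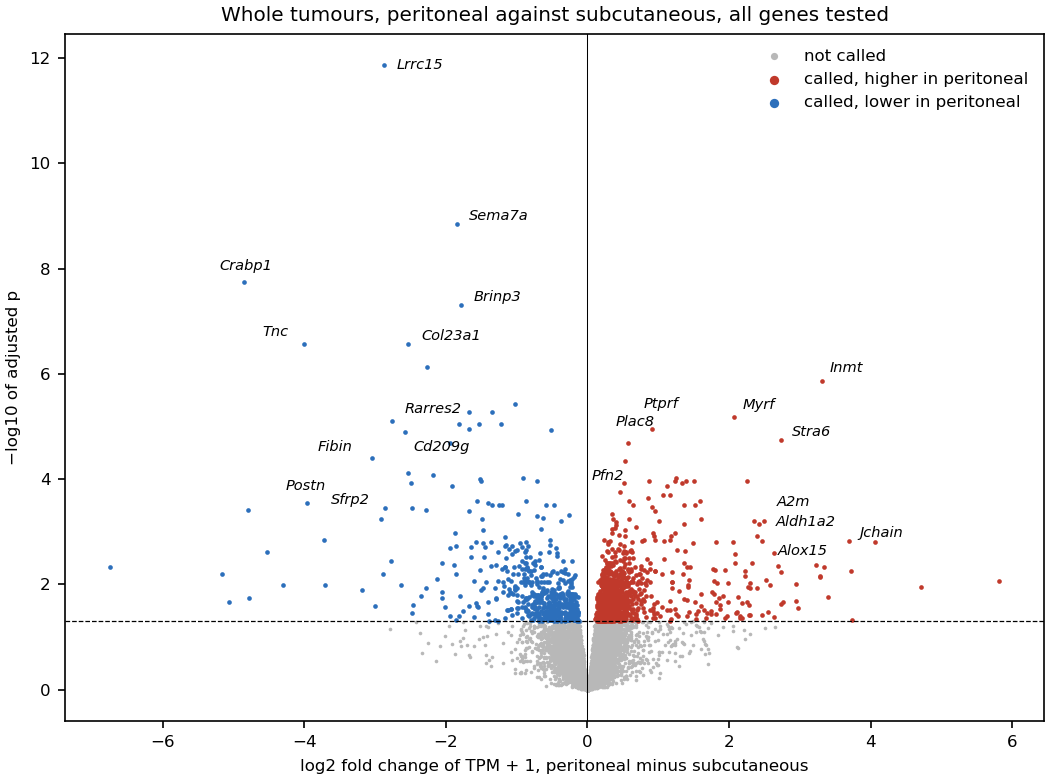
Each point is 1 of the 15054 genes tested. The x axis is the log2 fold change of TPM + 1, peritoneal minus subcutaneous, and the y axis is −log10 of the adjusted p, with a dashed line at 0.05. Red points are called and higher in peritoneal tumours, blue points are called and lower. Lrrc15, Sema7a and Crabp1 stand highest on the lower side and Inmt on the higher side.

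Genes of retinoid handling differed in both directions. Retinol enters cells through the receptor Stra6, is oxidised by Aldh1a enzymes to retinoic acid, and acts through nuclear receptors that include Rarb. Of 16 retinoid genes tested 5 rose and 2 fell (median log2FC 0.081), where 8.52% of all genes rose and 3.64% fell. Both counts moved by less than 1.5 times without any single library and with either rescaling.

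Stra6 was at 31, 40.3, 25.5, 16.6 and 29.5 TPM in peritoneal tumours, against 3.21, 3.57, 3.8, 2.53 and 3.29 TPM in subcutaneous tumours. Every peritoneal value was more than 4 times the highest subcutaneous value (log2FC 2.74, SE 0.27, adjusted p = 1.84e-05). In sorted cancer cells Stra6 averaged 24.4 ± 4.68 TPM in peritoneal sorted cells and 9.19 ± 2.91 TPM in subcutaneous sorted cells (log2FC 1.35, adjusted p = 0.00112). Rarb, the retinoic acid receptor beta, was at 22.1, 22.8, 20.0, 19.6 and 24.2 TPM in peritoneal tumours, against 7.26, 9.56, 6.57, 7.52 and 9.21 TPM in subcutaneous tumours. The groups were well apart, with little spread in either (log2FC 1.34, SE 0.159, adjusted p = 0.000121). Dhrs3, a reductase that turns retinaldehyde back to retinol and is itself induced by retinoic acid, was at 57.8, 98.5, 71.8, 52.1 and 81.1 TPM in peritoneal tumours, against 19.3, 31.6, 23.4, 28.9 and 32.2 TPM in subcutaneous tumours. Its groups did not overlap (log2FC 1.37, SE 0.18, adjusted p = 0.000316), and in sorted cells it averaged 66.6 ± 8.66 TPM in peritoneal sorted cells and 14.6 ± 3.52 TPM in subcutaneous sorted cells (log2FC 2.14, adjusted p = 1.71e-05). Aldh1a1, a retinaldehyde dehydrogenase, measured 5.15 ± 1.33 TPM in peritoneal tumours and 2.28 ± 0.457 TPM in subcutaneous tumours (SD, n = 5 each; log2FC 0.89, SE 0.17, adjusted p = 0.00519). Rarb, Dhrs3 and Aldh1a1 are members of the list that were singled out after their values were seen.

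Crabp1, a cytoplasmic retinoic acid binding protein, had the most negative log2FC of the called genes that are not skeletal muscle genes. Its values were 0.14, 0, 0.148, 0.0485 and 0.0624 TPM in peritoneal tumours, against 46.8, 55, 19.3, 16.5 and 29.7 TPM in subcutaneous tumours. All 5 peritoneal libraries were near 0 (log2FC −4.85, SE 0.259, adjusted p = 1.8e-08). In sorted cells it was listed at 0 in all 5 peritoneal samples, against 4.01 to 17.9 TPM (median 10.2 TPM) in subcutaneous samples (adjusted p = 2.81e-06). Rarres2 encodes chemerin, a chemoattractant for macrophages and natural killer cells that was named for its induction by a retinoid. It was at 53.9, 43.9, 55.3, 46.7 and 56.7 TPM in peritoneal tumours, against 218, 477, 325, 346 and 465 TPM in subcutaneous tumours. The lowest subcutaneous library was still far above the highest peritoneal library (log2FC −2.76, SE 0.247, adjusted p = 8.02e-06), and sorted cells averaged 32.5 ± 3.28 TPM in peritoneal sorted cells and 92.5 ± 40.3 TPM in subcutaneous sorted cells (log2FC −1.38, adjusted p = 0.00183). Crabp2, a related binding protein that carries retinoic acid to its receptors, was not called (219.7 ± 13.7 against 171 ± 15.2 TPM, peritoneal against subcutaneous; log2FC 0.36, adjusted p = 0.0805). The receptors Rara, Rarg and Rxra were not called either, with log2FCs of 0.0054, 0.16 and −0.019.

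The promoters of Rarb and Crabp1, called in opposite directions, are shown because the Rarb promoter is the textbook example of a retinoic acid response element. Both are the 250 bases before the annotated start in RefSeq on GRCm38.p6, 5′ to 3′ on the strand of the gene. The Rarb window is chr14:16575477-16575726 (- strand) and the Crabp1 window chr9:54764498-54764747 (+ strand). Capitals mark a direct repeat, spaced by 5 bases and searched on both strands, of hexamers that could each be AGGTCA or else AGTTCA, and also GGTTCA or otherwise GGGTCA.
Rarb: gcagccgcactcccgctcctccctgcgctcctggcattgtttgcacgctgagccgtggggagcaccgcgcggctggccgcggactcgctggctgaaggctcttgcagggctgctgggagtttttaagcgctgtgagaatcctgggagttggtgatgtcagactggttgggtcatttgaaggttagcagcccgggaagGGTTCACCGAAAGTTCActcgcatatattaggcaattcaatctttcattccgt
Crabp1: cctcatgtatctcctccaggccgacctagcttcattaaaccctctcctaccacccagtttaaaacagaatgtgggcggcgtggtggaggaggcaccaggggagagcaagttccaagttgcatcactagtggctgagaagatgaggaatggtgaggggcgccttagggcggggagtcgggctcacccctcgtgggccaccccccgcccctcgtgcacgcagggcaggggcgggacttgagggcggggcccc
The repeat of the Rarb promoter runs from 53 to 37 bases before the start, on the strand of the gene, and none is in the Crabp1 window. Of 27025 genes with such a window in RefSeq 0.104% held the repeat, and of 14 retinoid genes with a window 2 did, Rarb and the retinoic acid hydroxylase Cyp26a1. Both hexamers of the Rarb repeat, GGTTCA and AGTTCA, were among those searched for, so the Rarb match was no test. Cyp26a1 was too low to be tested. A match describes the letters of this window and not a bound site.

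Mesothelial genes were higher in peritoneal tumours. Of 25 tested 16 rose and 2 fell (median log2FC 0.60), where 8.52% of all genes rose and 3.64% fell. The count of 16 moved by less than 1.5 times without any single library. Krt19, a keratin of simple epithelia, was at 4.48, 7.28, 6.62, 29.5 and 2.77 TPM in peritoneal tumours, against 0.228, 0.381, 0.198, 0.313 and 0.633 TPM in subcutaneous tumours. Peritoneal replicate 4 was far above the others, and the groups did not overlap (log2FC 2.63, SE 0.452, adjusted p = 0.00257). Aldh1a2, the retinoic acid synthesising enzyme of mesothelium, was at 40.9, 37.5, 28.8, 27.6 and 34.6 TPM in peritoneal tumours, against 5.45, 10.9, 2.79, 3.7 and 6.8 TPM in subcutaneous tumours. The 5 peritoneal values were close together and all above the subcutaneous values (log2FC 2.43, SE 0.352, adjusted p = 0.000698). Wt1, a transcription factor of the mesothelium, was at 4.06, 3.94, 4.14, 3.09 and 4.01 TPM in peritoneal tumours, against 0.446, 0.62, 0.723, 0.638 and 1.21 TPM in subcutaneous tumours (log2FC 1.50, SE 0.176, adjusted p = 0.000111). The neuronal leucine-rich repeat gene Lrrn4 (2.21 ± 0.761 against 0.0451 ± 0.0191 TPM, log2FC 1.59, adjusted p = 0.000256) and the uroplakin Upk3b (1.92 ± 0.938 against 0.00171 ± 0.00383 TPM, log2FC 1.49, adjusted p = 0.00164) are also mesothelial markers and showed the same separation. Upk3b was singled out after its values were seen.

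The keratin partners Krt8, singled out after its values were seen, and Krt18 rose as well. Krt8 was at 26.8, 38.5, 17.3, 39.5 and 18.1 TPM in peritoneal tumours, against 1.44, 7.21, 7.95, 5.81 and 6.82 TPM in subcutaneous tumours (log2FC 2.13, SE 0.518, adjusted p = 0.0176). Krt18 was at 1.68, 2.51, 2.02, 15 and 1.34 TPM in peritoneal tumours, against 0.0691, 0.11, 0.413, 0.284 and 0.114 TPM in subcutaneous tumours (log2FC 1.76, SE 0.406, adjusted p = 0.0139). As with Krt19, peritoneal replicate 4 held the highest value of both. Krt7, another simple epithelial keratin, measured 2.24 ± 0.971 TPM in peritoneal tumours and 0.758 ± 0.135 TPM in subcutaneous tumours (log2FC 0.83, SE 0.2, adjusted p = 0.0167). Of 12 keratin and epithelial or mesenchymal genes tested these 4 rose and 1, the mesenchymal filament gene Vim, fell. The 4 keratins, Krt7, Krt8, Krt18 and Krt19, are also among the 16 mesothelial genes that rose. Among all genes 8.52% rose and 3.64% fell. No gene of the list was lower without peritoneal replicate 1 or 7 or any single subcutaneous library.

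Slpi, a secreted protease inhibitor of epithelia, was at 33, 60.5, 48.9, 49.2 and 37.2 TPM in peritoneal tumours, against 3.47, 11.9, 6.71, 9.88 and 11.7 TPM in subcutaneous tumours (log2FC 2.33, SE 0.425, adjusted p = 0.00387). In sorted cells Slpi was not called (1.12 ± 0.571 against 1.02 ± 0.531 TPM, log2FC 0.069, adjusted p = 0.898). Msln, the mesothelial and tumour marker, was not called in whole tumours (log2FC −0.16, 95% interval −0.45 to 0.13, adjusted p = 0.448). It averaged 241 ± 37.9 TPM in peritoneal sorted cells and 166 ± 16.3 TPM in subcutaneous sorted cells (log2FC 0.52, adjusted p = 0.0459). The 2 lower members were the sulfatase Sulf1 and podoplanin, Pdpn (log2FC −1.31, adjusted p = 0.0115 and log2FC −0.26, adjusted p = 0.0367). Leaving out a single library took 1 of them from the calls, except for peritoneal replicate 2 and subcutaneous replicate 1. Of the 25 tested mesothelial genes 12 were in the table of sorted cells, where 3 rose and 2 fell (median log2FC −0.031). Krt19, Wt1, Aldh1a2, Lrrn4 and Upk3b were not listed there. The sorted cells were deposited with 12461 entries, whole tumours with 54456, so a gene not listed there was not shown to be absent. The summed level of the list was 873 to 1125 TPM in peritoneal tumours, against 733 to 849 TPM in subcutaneous tumours.

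**Figure D2:**
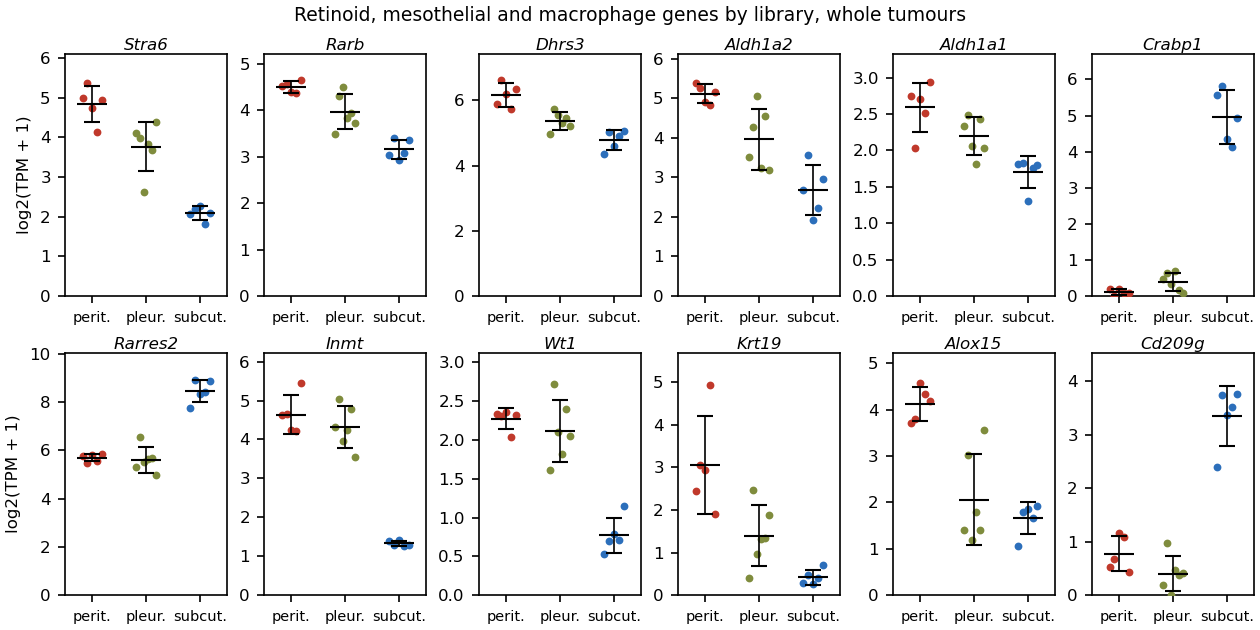
Points are single libraries (peritoneal n = 5, pleural n = 6, subcutaneous n = 5), the y axis is log2(TPM + 1), and bars are the mean and SD. Stra6, Rarb, Aldh1a2, Inmt, Wt1, Krt19 and Alox15 are higher in all peritoneal than in all subcutaneous libraries, and Crabp1, Rarres2 and Cd209g are lower. Pleural tumours are drawn for orientation.

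Genes outside these families gave some of the clearest separations. Inmt, an indolethylamine methyltransferase, was at 23.7, 24.4, 17.9, 17.7 and 42.5 TPM in peritoneal tumours, against 1.63, 1.43, 1.67, 1.39 and 1.45 TPM in subcutaneous tumours. Subcutaneous values were within a narrow range and the lowest peritoneal value was more than 10 times as high (log2FC 3.31, SE 0.253, adjusted p = 1.35e-06). Inmt averaged 7.4 ± 2.54 TPM in peritoneal sorted cells and 0.538 ± 0.192 TPM in subcutaneous sorted cells (log2FC 2.40, adjusted p = 0.000103). Myrf, a membrane-bound transcription factor, was at 5.55, 3.48, 4.53, 3.04 and 3.79 TPM in peritoneal tumours, against 0.143, 0.246, 0.141, 0.2 and 0.229 TPM in subcutaneous tumours (log2FC 2.07, SE 0.182, adjusted p = 6.63e-06). A2m, the broad protease inhibitor alpha-2-macroglobulin, was at 4.96, 5.57, 7.46, 15.6 and 9.1 TPM in peritoneal tumours, against 0.285, 0.787, 0.364, 0.717 and 0.782 TPM in subcutaneous tumours (log2FC 2.50, SE 0.358, adjusted p = 0.000623). Neither Myrf nor A2m overlapped between the groups, as was so for 12.5% of all genes, and A2m was named on that condition.

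Called differences of smaller size were those of Ptprf, Plac8 and Pfn2. Ptprf, a receptor tyrosine phosphatase of cell contacts, was at 29.3, 33.5, 30.6, 28.4 and 26.4 TPM in peritoneal tumours, against 15.4, 13.9, 16.4, 15.2 and 15.7 TPM in subcutaneous tumours (log2FC 0.91, SE 0.085, adjusted p = 1.11e-05). Plac8 measured 373 ± 19.6 TPM in peritoneal tumours and 251 ± 20.7 TPM in subcutaneous tumours (log2FC 0.57, SE 0.0568, adjusted p = 2.05e-05), and the actin-binding profilin Pfn2 63.8 ± 3.22 TPM in peritoneal tumours and 44 ± 3.82 TPM in subcutaneous tumours (log2FC 0.53, SE 0.0566, adjusted p = 4.57e-05). All 5 peritoneal values lay above all 5 subcutaneous values for the 3 genes, and 12.5% of all genes had groups without overlap. In sorted cells Plac8 was called too (504 ± 46.8 against 382 ± 14.4 TPM, log2FC 0.40, adjusted p = 0.00159), while Ptprf and Pfn2 were not (log2FC 0.41, adjusted p = 0.0964, and log2FC 0.26, adjusted p = 0.194). Clu, the secreted chaperone clusterin, measured 81.2 ± 70.4 TPM in peritoneal tumours and 12.2 ± 1.74 TPM in subcutaneous tumours (log2FC 2.28, SE 0.674, adjusted p = 0.0389), with peritoneal replicates 4 and 7 highest. Its call was lost in each fit that left out a single library of the 10. The Wnt inhibitor Frzb measured 8 ± 4.06 TPM in peritoneal tumours and 0.694 ± 0.293 TPM in subcutaneous tumours (log2FC 2.28, SE 0.603, adjusted p = 0.0252). Its adjusted p was 0.0596 and 0.062 without peritoneal replicate 1 or 2 and 0.0505 and 0.0506 without subcutaneous replicate 2 or 3.

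Among the lowered genes Lrrc15 had the smallest adjusted p of the comparison. Lrrc15 encodes a surface protein of activated fibroblasts. It was at 0.0331, 0.0353, 0, 0.0343 and 0.0515 TPM in peritoneal tumours, against 7.05, 6.75, 6.02, 6.67 and 6.28 TPM in subcutaneous tumours. All peritoneal libraries were near 0, and the subcutaneous libraries differed little from each other (log2FC −2.87, SE 0.0771, adjusted p = 1.35e-12). Sema7a, a membrane-anchored semaphorin, was at 10.7, 10.7, 10.8, 9.67 and 10.8 TPM in peritoneal tumours, against 35.2, 37.8, 46.4, 44.1 and 40.6 TPM in subcutaneous tumours (log2FC −1.85, SE 0.0816, adjusted p = 1.42e-09). Brinp3 measured 0.115 ± 0.0767 TPM in peritoneal tumours and 2.87 ± 0.55 TPM in subcutaneous tumours (log2FC −1.79, SE 0.104, adjusted p = 4.9e-08). Lrrc15 averaged 0.0218 ± 0.0172 TPM in peritoneal sorted cells and 3.67 ± 1.49 TPM in subcutaneous sorted cells (log2FC −2.13, adjusted p = 2.61e-06), and Sema7a 3.62 ± 0.897 TPM in peritoneal sorted cells and 22.2 ± 6.42 TPM in subcutaneous sorted cells (log2FC −2.31, adjusted p = 1.47e-06). Zfp969, a zinc finger gene, was listed at 0 in 4 peritoneal libraries and at 1.42 TPM in replicate 4, against 10.3, 23.7, 5.66, 1.88 and 10.3 TPM in subcutaneous tumours (log2FC −2.92, SE 0.413, adjusted p = 0.00058). In sorted cells Zfp969 was not called (5.2 ± 5.56 against 3 ± 3.71 TPM, log2FC 0.50, adjusted p = 0.744).

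Tenascin C and periostin, adhesive glycoproteins of wound and tumour stroma, were far lower in peritoneal tumours, while most members of the matrix lists were not called. Tnc was at 5.3, 6.79, 7.91, 7.8 and 4.42 TPM in peritoneal tumours, against 81.8, 134, 112, 132 and 133 TPM in subcutaneous tumours. The lowest subcutaneous library held more than 10 times the highest peritoneal value (log2FC −4.01, SE 0.269, adjusted p = 2.72e-07). Postn was at 9.69, 13.2, 10.2, 10.4 and 10.7 TPM in peritoneal tumours, against 154, 193, 154, 223 and 201 TPM in subcutaneous tumours, also without overlap (log2FC −3.97, SE 0.513, adjusted p = 0.000283). Sorted samples showed the same order, with Tnc at 0.967 ± 0.812 TPM in peritoneal sorted cells and 56.9 ± 22 TPM in subcutaneous sorted cells (log2FC −4.91, adjusted p = 1.9e-07) and Postn at 1.1 ± 1.15 TPM in peritoneal sorted cells and 92.2 ± 37.1 TPM in subcutaneous sorted cells (log2FC −5.54, adjusted p = 1.92e-07). In those samples 7 of 13 fibroblast and mural cell markers tested (median log2FC −0.91) and 8 of 10 endothelial markers tested (median −1.13) were lower too, and their part in the sorted matrix values was not tested. Lower genes of sorted cells numbered 782 of 12357 in all, and higher genes 587. In whole tumours 3.64% of all genes fell and 8.52% rose. Of 28 matricellular genes tested there 4 fell, with biglycan (Bgn) and the microfibril gene Mfap5 beside Tnc and Postn, and 1 rose (median log2FC −0.34). The gene that rose was fibronectin, Fn1, at 918, 1240, 1002, 936 and 876 TPM in peritoneal tumours, against 780.2, 709, 738, 687 and 752 TPM in subcutaneous tumours (log2FC 0.43, SE 0.0901, adjusted p = 0.00864). Every peritoneal value of Fn1 was above every subcutaneous value. A further matricellular gene was higher without peritoneal replicate 4 or subcutaneous replicate 1.

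Of 20 collagen genes tested 5 fell and 0 rose (median log2FC −0.22), where 3.64% of all genes fell, and 1 rose without subcutaneous replicate 1. Col12a1, a collagen on the surface of fibrils, was at 27.6, 32, 22.5, 28.1 and 24.7 TPM in peritoneal tumours, against 92.1, 82.8, 61.4, 78.9 and 87.4 TPM in subcutaneous tumours (log2FC −1.54, SE 0.14, adjusted p = 8.93e-06). Col5a3, a chain of the type V collagen that sets fibril width, measured 15.1 ± 5.24 TPM in peritoneal tumours and 45.8 ± 11 TPM in subcutaneous tumours (log2FC −1.56, SE 0.199, adjusted p = 0.000256), and Col7a1, of anchoring fibrils, 0.493 ± 0.199 TPM in peritoneal tumours and 2.09 ± 0.785 TPM in subcutaneous tumours (log2FC −1.02, SE 0.172, adjusted p = 0.00229). Col6a3 and Col18a1 also fell (log2FC −0.76, adjusted p = 0.0153, and log2FC −0.40, adjusted p = 0.0241). The most abundant chains were not called: Col1a1 measured 419 ± 74.3 TPM in peritoneal tumours and 687 ± 144 TPM in subcutaneous tumours (log2FC −0.70, adjusted p = 0.0871), and Col3a1 had a log2FC of −0.07 (adjusted p = 0.758). The transmembrane collagen Col23a1, which was not on the list, was at 1.18, 0.211, 0.278, 0.391 and 0.849 TPM in peritoneal tumours, against 8.27, 7.5, 5.76, 9.88 and 8.7 TPM in subcutaneous tumours (log2FC −2.53, SE 0.168, adjusted p = 2.72e-07). In sorted cells 11 of 18 collagen genes tested were lower and 0 higher (median log2FC −0.61), where 782 of 12357 genes were lower.

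Matrix proteases, their inhibitors and crosslinking enzymes gave 10 lower and 2 higher genes of 27 tested (median log2FC −0.28). The higher share was near the 8.52% of all genes, and 3.64% of all genes were lower. Timp3, a metalloproteinase inhibitor bound to matrix, was at 14.1, 11.1, 15.1, 14.9 and 13.9 TPM in peritoneal tumours, against 35.5, 44.3, 39.2, 48.2 and 54.2 TPM in subcutaneous tumours (log2FC −1.60, SE 0.335, adjusted p = 0.00848). The collagenase Mmp13 measured 0.271 ± 0.168 TPM in peritoneal tumours and 2.1 ± 0.862 TPM in subcutaneous tumours (log2FC −1.25, SE 0.164, adjusted p = 0.000316). Stromelysin, Mmp3, was at 8, 6.64, 4.54, 6.25 and 12.4 TPM in peritoneal tumours, against 45.6, 36.6, 31, 35.8 and 47.8 TPM in subcutaneous tumours (log2FC −2.28, SE 0.512, adjusted p = 0.0116). The gelatinase Mmp2 measured 31.5 ± 4.07 TPM in peritoneal tumours and 97.9 ± 26.5 TPM in subcutaneous tumours (log2FC −1.57, SE 0.405, adjusted p = 0.023), and its adjusted p was 0.0544, 0.0504 and 0.0526 without subcutaneous replicate 2, 4 or 5. Mmp2 and Mmp3 were singled out after their values were seen. Plod2, a lysyl hydroxylase that prepares collagen for crosslinking, rose (39 ± 6.83 TPM in peritoneal tumours and 21.2 ± 2.38 TPM in subcutaneous tumours; log2FC 0.84, SE 0.149, adjusted p = 0.00331). The number of higher genes, 2 with P4ha1, was 1 with either rescaling and without peritoneal replicate 2, 3 or 7 or subcutaneous replicate 1, 2, 4 or 5. Lower genes numbered 4 when subcutaneous replicate 2 was left out and 6 when replicate 5 was.

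Fibin, Sfrp2 and Cthrc1 were among the genes named for the most negative log2FCs. Fibin was at 1.68, 1.01, 0.389, 0.127 and 1.02 TPM in peritoneal tumours, against 10.9, 14.7, 10.5, 18.7 and 14.7 TPM in subcutaneous tumours (log2FC −3.05, SE 0.32, adjusted p = 3.92e-05). Sfrp2, a secreted Wnt modulator, was at 1.9, 0.88, 1.95, 2.56 and 1.23 TPM in peritoneal tumours, against 9.6, 22.7, 13.5, 23.4 and 28.2 TPM in subcutaneous tumours (log2FC −2.86, SE 0.383, adjusted p = 0.000358). Cthrc1, a collagen triple helix repeat protein induced in wounds, measured 1.74 ± 0.869 TPM in peritoneal tumours and 18.3 ± 6.75 TPM in subcutaneous tumours (log2FC −2.77, SE 0.497, adjusted p = 0.00362). In sorted cells Fibin and Cthrc1 were also lower (log2FC −2.40, adjusted p = 1.92e-07, and log2FC −2.16, adjusted p = 5.57e-06).

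Of 19 fibroblast and mural cell markers 2 fell and 1 rose (median log2FC −0.34), where 3.64% of all genes fell and 8.52% rose. Thy1, a surface marker of fibroblasts and T cells, was at 82.2, 66.6, 66.9, 69.4 and 92.7 TPM in peritoneal tumours, against 139, 189, 164, 179 and 179 TPM in subcutaneous tumours (log2FC −1.16, SE 0.19, adjusted p = 0.00183). Fap, the fibroblast activation protein, measured 1.83 ± 0.574 TPM in peritoneal tumours and 4.73 ± 1.17 TPM in subcutaneous tumours (log2FC −1.02, SE 0.23, adjusted p = 0.0123). Tagln, an actin-binding protein of smooth muscle and myofibroblasts, rose (22.5 ± 9.72 TPM in peritoneal tumours and 6.54 ± 2.35 TPM in subcutaneous tumours; log2FC 1.61, SE 0.426, adjusted p = 0.0254), with an adjusted p of 0.0538 without peritoneal replicate 7 and 0.0569 without subcutaneous replicate 1. Without peritoneal replicate 2 the numbers were 4 lower and 2 higher. The summed level of the list was 1036 to 1711 TPM in peritoneal tumours, against 1314 to 1608 TPM in subcutaneous tumours, so the groups overlapped. The part of fibroblast number in the matrix values was not tested. Pecam1, an endothelial adhesion molecule and the only called gene of 22 endothelial markers, measured 22.4 ± 3.39 TPM in peritoneal tumours and 32.4 ± 5.21 TPM in subcutaneous tumours (log2FC −0.51, SE 0.159, adjusted p = 0.0472). Its groups overlapped, and it was not called without peritoneal replicate 1, 3, 4 or 7 or subcutaneous replicate 2, 3, 4 or 5 (adjusted p of 0.0689 to 0.0994). Lower endothelial genes numbered 3 with median-of-ratios scaling, 4 with quantile normalization and 2 without subcutaneous replicate 1.

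**Figure D3:**
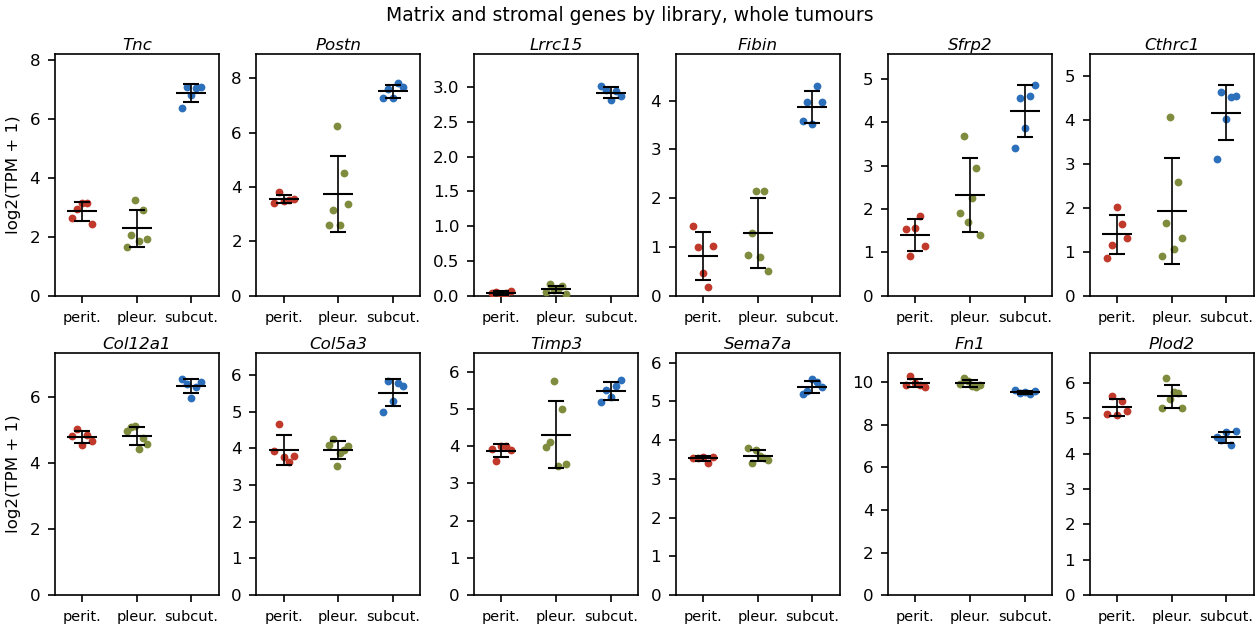
Points are single libraries (peritoneal n = 5, pleural n = 6, subcutaneous n = 5), the y axis is log2(TPM + 1), and bars are the mean and SD. The panels from Tnc to Sema7a show peritoneal values below all subcutaneous values, and Fn1 and Plod2 show them above.

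Macrophage genes split by type. Of 14 genes known from resident macrophages of serous cavities 8 rose and 0 fell (median log2FC 0.69), where 8.52% of all genes rose. Without any single library 6 or 7 rose. Fn1 and Gata6, which other cells of these tumours make too, were among the 8. Alox15, a lipoxygenase of resident peritoneal macrophages, was at 12.2, 13, 22.8, 19.2 and 17.2 TPM in peritoneal tumours, against 1.1, 2.48, 2.63, 2.17 and 2.79 TPM in subcutaneous tumours (log2FC 2.46, SE 0.388, adjusted p = 0.00149). Coagulation factor F10 was at 6.33, 6.61, 13.3, 12.7 and 9.35 TPM in peritoneal tumours, against 0.664, 3.39, 1.14, 1.64 and 2.24 TPM in subcutaneous tumours (log2FC 1.95, SE 0.373, adjusted p = 0.00529), and factor F5 measured 1.47 ± 0.136 TPM in peritoneal tumours and 0.274 ± 0.127 TPM in subcutaneous tumours (log2FC 0.96, SE 0.151, adjusted p = 0.00145). Both factors are made by resident peritoneal macrophages of the mouse. Vsig4, a complement receptor, measured 3.37 ± 0.425 TPM in peritoneal tumours and 0.953 ± 0.218 TPM in subcutaneous tumours (log2FC 1.16, SE 0.182, adjusted p = 0.00144). No value of these 4 genes overlapped between the groups, as was so for 12.5% of all genes, and Alox15 was named on that condition. Cd5l, a secreted survival factor of tissue macrophages, and Prg4, lubricin, were called (log2FC 1.25, adjusted p = 0.0367, and log2FC 1.28, adjusted p = 0.0404) but lost the call without any single library other than peritoneal replicate 4 for Cd5l (adjusted p of 0.0553 to 0.0765) and other than subcutaneous replicate 5 for Prg4 (0.0567 to 0.0833). F10, Cd5l and Prg4 were singled out after their values were seen.

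Gata6, the factor that sets the identity of these macrophages and is also made by mesothelium, was at 3.3 to 4.63 TPM in peritoneal tumours, against 1.75 to 2.47 TPM in subcutaneous tumours (log2FC 0.60, adjusted p = 0.0134). The phosphatidylserine receptor Timd4, a further marker of resident cells, was not called (log2FC 0.25, adjusted p = 0.704). Marco, a scavenger receptor, was at 5.47, 2.36, 5.02, 6.96 and 10.5 TPM in peritoneal tumours, against 0.033, 0.295, 0.237, 0.228 and 0.495 TPM in subcutaneous tumours (log2FC 2.39, SE 0.366, adjusted p = 0.00119). Padi4, an enzyme that citrullinates histones in granulocytes and macrophages, was at 3.82, 4.53, 6.22, 8.17 and 6.09 TPM in peritoneal tumours, against 0.0808, 0.209, 0.502, 0.295 and 0.454 TPM in subcutaneous tumours (log2FC 2.35, SE 0.334, adjusted p = 0.000613). Neither was among the genes listed for sorted cells, which does not show absence.

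General macrophage genes were lower: 9 of 16 fell and 0 rose (median log2FC −0.72), where 3.64% of all genes fell. Adgre1, the F4/80 antigen, was at 26.2 to 43.6 TPM in peritoneal tumours, against 48.5 to 85.4 TPM in subcutaneous tumours (log2FC −0.99, adjusted p = 0.0115). The scavenger receptor Cd163 was at 2.14, 2.68, 2.19, 1.64 and 2.08 TPM in peritoneal tumours, against 3.09, 11.9, 6.46, 8.12 and 11.4 TPM in subcutaneous tumours (log2FC −1.44, SE 0.309, adjusted p = 0.00917). Mrc1, the mannose receptor, measured 19.2 ± 2.68 TPM in peritoneal tumours and 41.4 ± 12.5 TPM in subcutaneous tumours (log2FC −1.02, SE 0.226, adjusted p = 0.0108), and the lipid receptor Trem2 40.7 ± 1.55 TPM in peritoneal tumours and 58.2 ± 6.22 TPM in subcutaneous tumours (log2FC −0.50, SE 0.0981, adjusted p = 0.0058). Csf1r, the growth factor receptor of all macrophages, was not called (log2FC −0.22, adjusted p = 0.183). The count of 9 was 4 without peritoneal replicate 1, 2 or 3 or subcutaneous replicate 2, 4 or 5, and 5 without subcutaneous replicate 3. The summed level of the list was 2509 to 3782 TPM in peritoneal tumours, against 3650 to 5328 TPM in subcutaneous tumours, so the highest peritoneal library, replicate 7, was just above the lowest subcutaneous library.

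Genes of alternatively activated macrophages were called in both directions, 8 lower and 2 higher of 15 tested (median log2FC −0.92). Among all genes 3.64% were lower and 8.52% higher. The C-type lectin Cd209g was at 0.439, 0.599, 1.23, 1.13 and 0.358 TPM in peritoneal tumours, against 4.28, 12.4, 9.35, 10.4 and 12.6 TPM in subcutaneous tumours (log2FC −2.58, SE 0.246, adjusted p = 1.28e-05). Its relatives Cd209f (0.839 ± 0.41 against 7.61 ± 2.83 TPM, log2FC −2.18, adjusted p = 8.27e-05) and Cd209d (0.261 ± 0.202 against 4.02 ± 1.63 TPM, log2FC −1.95, adjusted p = 2.05e-05) fell as well, and as close paralogs they may share reads. Retnla, a secreted product of macrophages under interleukin 4, was at 0.636, 0.181, 0.896, 1.68 and 1.51 TPM in peritoneal tumours, against 4.5, 18.4, 11.9, 6.45 and 12.3 TPM in subcutaneous tumours (log2FC −2.49, SE 0.295, adjusted p = 0.000121). Arg1, an arginine-degrading enzyme of the same state, was at 135, 132, 194, 263 and 153 TPM in peritoneal tumours, against 13.8, 107, 71.8, 24.7 and 61.3 TPM in subcutaneous tumours. Arg1 therefore rose, with a gap between the groups that was small beside the subcutaneous spread (log2FC 1.92, SE 0.46, adjusted p = 0.0165). Both counts moved by less than 1.5 times without any single library. Retnla and Arg1 were singled out after their values were seen.

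Genes shared by all leukocytes gave some lower calls. Ptprc, which encodes CD45, was not called (41 ± 11.8 against 57.5 ± 13.7 TPM; log2FC −0.48, 95% interval −0.92 to −0.047, adjusted p = 0.126). Calls among the 12 pan-leukocyte genes tested were 3 lower and 0 higher, where 3.64% of all genes were lower. Cd53, a leukocyte tetraspanin, measured 50.2 ± 9.78 TPM in peritoneal tumours and 78 ± 10.8 TPM in subcutaneous tumours (log2FC −0.64, SE 0.15, adjusted p = 0.0152) without overlap. Vav1 and Laptm5 were called with overlapping groups (log2FC −0.49, adjusted p = 0.0267, and log2FC −0.42, adjusted p = 0.0396). Vav1 was not called without peritoneal replicate 2 or 3 or subcutaneous replicate 4 or 5 (adjusted p of 0.0512 to 0.071). Laptm5 was not called without peritoneal replicate 1, 2, 3 or 4 or subcutaneous replicate 1, 3, 4 or 5 (0.0512 to 0.102). The count of 3 was 7 without peritoneal replicate 7, and 1 without peritoneal replicate 2 or 3 or subcutaneous replicate 4 or 5. The summed level of the list was 1078 to 1786 TPM in peritoneal tumours, against 1427 to 1963 TPM in subcutaneous tumours. Its part in the macrophage, natural killer cell and chemokine values was not tested.

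Natural killer and cytotoxic genes gave 7 lower and 0 higher of 14 tested (median log2FC −0.75), where 3.64% of all genes fell. The count of 7 moved by less than 1.5 times without any single library. The activating receptor Ncr1 was at 3.95, 2.59, 2.9, 3.79 and 5.42 TPM in peritoneal tumours, against 11.8, 9.09, 10.6, 14.9 and 13.3 TPM in subcutaneous tumours (log2FC −1.46, SE 0.256, adjusted p = 0.003). Granzyme A, Gzma, was at 13.8, 6.16, 9.02, 10.1 and 14.9 TPM in peritoneal tumours, against 29.8, 28.8, 35.7, 37.4 and 26.9 TPM in subcutaneous tumours (log2FC −1.52, SE 0.291, adjusted p = 0.00529). Granzyme B, Gzmb, measured 12 ± 1.97 TPM in peritoneal tumours and 27.8 ± 8.33 TPM in subcutaneous tumours (log2FC −1.12, SE 0.266, adjusted p = 0.0159), and the pore protein perforin, Prf1, 4.13 ± 1.35 TPM in peritoneal tumours and 9.76 ± 2.03 TPM in subcutaneous tumours (log2FC −1.09, SE 0.252, adjusted p = 0.0139). Klrb1c, the NK1.1 receptor gene, measured 0.628 ± 0.183 TPM in peritoneal tumours and 2.16 ± 0.964 TPM in subcutaneous tumours (log2FC −0.91, SE 0.195, adjusted p = 0.00914). For all 5 the groups did not overlap, as was so for 12.5% of all genes. With the replicate number as a block, Klrb1c, Prf1 and Gzmb were not called (adjusted p = 0.0516, 0.0798 and 0.0689). Gzmb and Prf1 were singled out after their values were seen.

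Of 20 T cell genes 2 fell and 0 rose (median log2FC −0.19), where 3.64% of all genes fell. The costimulator Icos was at 2.28, 1.52, 1.42, 2.21 and 3.19 TPM in peritoneal tumours, against 3.27, 3.91, 4.44, 5.68 and 6.54 TPM in subcutaneous tumours (log2FC −0.88, SE 0.184, adjusted p = 0.00843). Il2ra, the interleukin 2 receptor alpha chain, measured 1.99 ± 0.476 TPM in peritoneal tumours and 3.74 ± 0.965 TPM in subcutaneous tumours (log2FC −0.66, SE 0.159, adjusted p = 0.017). Cd8a, of cytotoxic T cells, was at 14.5, 11.9, 11.3, 12.8 and 18.1 TPM in peritoneal tumours, against 14.8, 8.63, 14.5, 17.7 and 15.7 TPM in subcutaneous tumours. The groups overlapped throughout (log2FC −0.039, 95% interval −0.53 to 0.45, adjusted p = 0.928). Cd4, of helper T cells, had a log2FC of −0.24 (95% interval −0.86 to 0.39, adjusted p = 0.625), with the highest peritoneal value, 6.91 TPM, in replicate 7. Foxp3, of regulatory T cells, measured 2.25 ± 0.355 TPM in peritoneal tumours and 3.21 ± 0.945 TPM in subcutaneous tumours (log2FC −0.35, 95% interval −0.66 to −0.049, adjusted p = 0.11).

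Of 21 immune checkpoint genes 2 were higher, near the 8.52% of all genes, and 2 lower, where 3.64% of all genes were lower. Havcr2, the TIM-3 receptor, was at 6.13, 3.21, 4.71, 7.5 and 6.77 TPM in peritoneal tumours, against 10.6, 8, 14, 13.2 and 10.6 TPM in subcutaneous tumours (log2FC −0.90, SE 0.184, adjusted p = 0.0075). The inhibitory receptor Ctla4 measured 2.06 ± 0.787 TPM in peritoneal tumours and 3.91 ± 1.17 TPM in subcutaneous tumours (log2FC −0.69, SE 0.184, adjusted p = 0.0267) with overlapping groups, and was not called without peritoneal replicate 1, 2 or 3 or subcutaneous replicate 4 or 5. Nectin2, a ligand of TIGIT, measured 38.1 ± 2.51 TPM in peritoneal tumours and 29.5 ± 0.98 TPM in subcutaneous tumours (log2FC 0.36, SE 0.0742, adjusted p = 0.00837). Ido1, which degrades tryptophan, was at 7.75, 2.17, 3.24, 15.5 and 9.13 TPM in peritoneal tumours, against 1.38, 0.651, 3.09, 1.13 and 2.01 TPM in subcutaneous tumours, with overlap (log2FC 1.52, SE 0.386, adjusted p = 0.0215). It lost its call without subcutaneous replicate 2. Cd274, which encodes PD-L1, was at 15.5, 7.2, 11.1, 18.8 and 22.8 TPM in peritoneal tumours, against 14, 11.5, 21.5, 15.1 and 20.7 TPM in subcutaneous tumours (log2FC −0.19, 95% interval −0.82 to 0.44, adjusted p = 0.706). Pdcd1, which encodes PD-1, was not called either (log2FC −0.30, 95% interval −0.80 to 0.19, adjusted p = 0.393).

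Antibody genes were higher in peritoneal tumours, with a wide spread. Of 18 plasma cell and antibody constant genes tested 9 rose and 1 fell (median log2FC 1.61). Among all genes 8.52% rose and 3.64% fell. Igkc, the kappa light chain constant region, was at 286, 1964, 227, 533 and 1288 TPM in peritoneal tumours, against 14.8, 44.3, 27.3, 50.6 and 64.5 TPM in subcutaneous tumours (log2FC 4.06, SE 0.647, adjusted p = 0.00154). Jchain, which joins IgM and IgA molecules, was at 24.4, 166, 21.9, 58.3 and 125 TPM in peritoneal tumours, against 1.46, 3.27, 3.15, 5.3 and 6.09 TPM in subcutaneous tumours (log2FC 3.70, SE 0.586, adjusted p = 0.00151). Peritoneal replicates 2 and 7 were highest for both, and the lowest peritoneal library still exceeded the highest subcutaneous one. Sdc1, a plasma cell surface proteoglycan that epithelial and tumour cells carry as well, was lower (54.3 ± 3.74 TPM in peritoneal tumours and 89.6 ± 9.01 TPM in subcutaneous tumours; log2FC −0.71, SE 0.0823, adjusted p = 0.000109). Sdc1 was also lower in sorted cells (40.5 ± 5.61 against 56.4 ± 10.7 TPM, log2FC −0.46, adjusted p = 0.0388). The number of higher genes was 5 without peritoneal replicate 2 or subcutaneous replicate 3, and 4 without subcutaneous replicate 2.

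B cell markers gave 2 higher and 0 lower genes among 11 tested (median log2FC 1.13), where 8.52% of all genes were higher. Cd79a, of the B cell receptor, was at 15.2, 21.2, 11.7, 11.9 and 45.6 TPM in peritoneal tumours, against 8.68, 7.46, 7.18, 7.69 and 8.4 TPM in subcutaneous tumours, highest in peritoneal replicate 7 (log2FC 1.13, SE 0.313, adjusted p = 0.0305). The adaptor Bank1 measured 2.6 ± 2.48 TPM in peritoneal tumours and 0.376 ± 0.102 TPM in subcutaneous tumours (log2FC 1.18, SE 0.364, adjusted p = 0.0456). The count of 2 was 0 without peritoneal replicate 2 or any of subcutaneous replicates 2, 3, 4 and 5, was 1 without peritoneal replicate 1 or 7 or subcutaneous replicate 1, and was 4 without peritoneal replicate 3 or 4. Cd79a averaged 11.4 ± 1.05 TPM in peritoneal sorted cells and 10.7 ± 1.34 TPM in subcutaneous sorted cells (log2FC 0.092, adjusted p = 0.571), a level near that of subcutaneous whole tumours although CD45 was gated out, with the caution that the tables were normalized separately. The summed level of the B cell list was 30.5 to 186 TPM in peritoneal tumours, against 25.3 to 34.5 TPM in subcutaneous tumours. Its highest value was in peritoneal replicate 7, which also had the most haemoglobin RNA, 0.544% of TPM, against 0.019 to 0.0469% in the other peritoneal libraries and 0.00867 to 0.0381% in subcutaneous tumours. The part of blood in the B cell values was not tested. Of 13 erythrocyte and platelet markers 7 could be tested and 0 were called.

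Granulocyte and dendritic cell genes were called in small numbers. Of 13 neutrophil genes 4 fell and 1 rose (median log2FC 0.86), where 3.64% of all genes fell and 8.52% rose. The log2FC was positive for 9 of the 13. Ngp, Camp, Elane and Mpo were among these, with log2FCs of 2.21, 1.46, 1.46 and 1.24, and were not called. The decoy receptor Il1r2 measured 2.18 ± 0.384 TPM in peritoneal tumours and 4.32 ± 0.788 TPM in subcutaneous tumours (log2FC −0.74, SE 0.133, adjusted p = 0.00365) and the stefin Stfa2l1 0.726 ± 0.234 TPM in peritoneal tumours and 2.12 ± 0.539 TPM in subcutaneous tumours (log2FC −0.85, SE 0.16, adjusted p = 0.00482), both without overlap. Csf3r, the receptor of granulocyte colony-stimulating factor, was lower with overlapping groups (6.47 ± 3.21 against 13.5 ± 4.03 TPM, adjusted p = 0.0349). The gene that rose was lactoferrin, Ltf (log2FC 2.16, adjusted p = 0.0402). The count of 4 was 2 without peritoneal replicate 1, 2 or 3 or subcutaneous replicate 2, 4 or 5, where Csf3r and the chemokine receptor Cxcr2 were not called. No neutrophil gene was higher without any single library other than peritoneal replicate 3 or 4. The mast cell protease Mcpt4 measured 10.7 ± 2.45 TPM in peritoneal tumours and 21.6 ± 6.66 TPM in subcutaneous tumours (log2FC −0.93, SE 0.223, adjusted p = 0.0165). A further mast cell protease, Cma1, was called with overlapping groups (log2FC −0.82, adjusted p = 0.0402) and lost its call in 11 of 20 alternative fits. Of 16 dendritic cell genes 2 fell: Siglech, of plasmacytoid cells (1.28 ± 0.718 against 3.84 ± 1.48 TPM, log2FC −1.08, adjusted p = 0.0144), and the migration receptor Ccr7 (3.62 ± 2.22 against 6.68 ± 1.87 TPM, log2FC −0.80, adjusted p = 0.0481), which lost its call in 12 of 20. The dendritic count of 2 was 3 without peritoneal replicate 7 and 1 without any other single library, and 1 dendritic gene was higher without peritoneal replicate 3 or 4.

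Of 29 chemokine genes 9 fell and 1 rose (median log2FC −0.51), where 3.64% of all genes fell and 8.52% rose. Cxcl14, made by fibroblasts and epithelia, was at 77.5, 44.4, 43.5, 36.6 and 46.1 TPM in peritoneal tumours, against 152, 203, 188, 249.5 and 238 TPM in subcutaneous tumours (log2FC −2.06, SE 0.374, adjusted p = 0.00387). Ccl11, eotaxin, was at 13.8, 12, 10.9, 15.9 and 15.6 TPM in peritoneal tumours, against 23.9, 43.1, 38, 52.5 and 45.9 TPM in subcutaneous tumours (log2FC −1.48, SE 0.221, adjusted p = 0.000937). Ccl8, a ligand of monocyte chemokine receptors, was at 228, 169, 168, 303 and 329 TPM in peritoneal tumours, against 379, 879.7, 555, 641 and 892 TPM in subcutaneous tumours (log2FC −1.47, SE 0.328, adjusted p = 0.0115). Cxcl16, a membrane-bound chemokine, measured 56.8 ± 14.7 TPM in peritoneal tumours and 107 ± 16.6 TPM in subcutaneous tumours (log2FC −0.93, SE 0.176, adjusted p = 0.00502). For these 4 the groups did not overlap, as was so for 12.5% of all genes.

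Cxcl12, the stromal factor that binds Cxcr4, overlapped between the groups (26.6 ± 16.2 against 81.4 ± 31 TPM; log2FC −1.68, SE 0.445, adjusted p = 0.0257) and was not called without peritoneal replicate 2 or 3 or subcutaneous replicate 2, 4 or 5 (adjusted p of 0.0534 to 0.0679). The monocyte attractant Ccl2 measured 35.4 ± 11.7 TPM in peritoneal tumours and 55.2 ± 7.34 TPM in subcutaneous tumours (log2FC −0.69, SE 0.211, adjusted p = 0.0445), and lost its call without peritoneal replicate 1, 2 or 3 or any single subcutaneous library (0.0534 to 0.095). Ccl8, Cxcl12 and Ccl2 were singled out after their values were seen. The chemokine that rose was Ccl24, a macrophage eotaxin (log2FC 0.90, adjusted p = 0.0167), and 2 rose without peritoneal replicate 4 or subcutaneous replicate 1. The count of 9 was 4 without peritoneal replicate 3 or subcutaneous replicate 5, and 5 without peritoneal replicate 2 or subcutaneous replicate 2 or 4. In sorted cells 11 of 23 chemokine genes were lower and 0 higher (median log2FC −1.78), among them Cxcl14 (2.03 ± 1.94 against 64.4 ± 28.8 TPM, log2FC −4.55, adjusted p = 7.91e-06), Ccl11 (1.16 ± 1.17 against 19 ± 10.0 TPM, log2FC −3.26, adjusted p = 1.59e-05) and Ccl2 (1.67 ± 0.803 against 20.5 ± 12.5 TPM, log2FC −2.87, adjusted p = 0.000287). Among all genes of sorted cells 782 of 12357 were lower and 587 higher. Of 18 chemokine receptors 4 fell in whole tumours, among them Ccr2, Cxcr2 and Ccr7 (log2FCs −0.74, −0.64 and −0.80), whose groups overlapped. The share of all genes that fell was 3.64%. No chemokine receptor was called without peritoneal replicate 3 or subcutaneous replicate 4 or 5, 1 without peritoneal replicate 1 or 2 or subcutaneous replicate 2, and 2 without subcutaneous replicate 1 or 3.

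Among 21 interleukins and cytokines 6 fell and 1 rose, where 3.64% of all genes fell and 8.52% rose. Il1rn, the interleukin 1 receptor antagonist, was at 9.38, 5.84, 6.76, 13.6 and 8.81 TPM in peritoneal tumours, against 12.5, 15.7, 19.3, 19.3 and 21.3 TPM in subcutaneous tumours, with a slight overlap (log2FC −0.94, SE 0.202, adjusted p = 0.00917). Il1b, interleukin 1 beta, measured 12.5 ± 5.26 TPM in peritoneal tumours and 35.4 ± 15.8 TPM in subcutaneous tumours (log2FC −1.41, SE 0.358, adjusted p = 0.0212), and was not called without peritoneal replicate 2 or 3 or subcutaneous replicate 4 or 5 (adjusted p of 0.0502 to 0.0582). Il12b, the shared subunit of interleukins 12 and 23, measured 0.952 ± 0.411 TPM in peritoneal tumours and 2.46 ± 0.511 TPM in subcutaneous tumours (log2FC −0.83, SE 0.177, adjusted p = 0.009). Tgfb1 fell (62.2 ± 6.42 TPM in peritoneal tumours and 79.8 ± 5.58 TPM in subcutaneous tumours; log2FC −0.36, SE 0.0832, adjusted p = 0.0148) while Tgfb3, of the same growth factor family, rose (log2FC 0.44, adjusted p = 0.0253) and lost its call without peritoneal replicate 2 or subcutaneous replicate 2. The count of 6 was 3 without peritoneal replicate 2 or 3 or subcutaneous replicate 4 or 5. Il1b was singled out after its values were seen.

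No gene of the interferon response or MHC class I lists was called in whole tumours. Of 28 interferon response genes 0 were called (median log2FC −0.16), and of 17 genes of MHC class I presentation 0 were called (median −0.02). Cxcl9 and Cxcl10, chemokines induced by interferon gamma, had log2FCs of −0.68 and −0.44 (adjusted p = 0.315 and 0.467). In sorted cells 11 of the 28 interferon genes were lower and 0 higher (median log2FC −1.19), with 11.1% of 12357 genes called there in all. Of 11 MHC class II genes 1 fell, the protease Ctss that prepares peptides for loading (464 ± 128 against 798 ± 106 TPM, log2FC −0.82, SE 0.199, adjusted p = 0.0173), and 4 fell without peritoneal replicate 7. The median of the class II list was −0.65, and H2-Aa, a chain of a class II molecule singled out after its values were seen, was not called (608 ± 313 against 1073 ± 249 TPM, log2FC −0.94, 95% interval −1.66 to −0.23, adjusted p = 0.0745). Of 20 complement genes 5 fell (median log2FC −0.22), where 3.64% of all genes fell. The receptor C3ar1 measured 26.2 ± 5.01 TPM in peritoneal tumours and 41 ± 5.93 TPM in subcutaneous tumours (log2FC −0.64, SE 0.147, adjusted p = 0.0139), and the macrophage products C1qa and C1qb had log2FCs of −0.74 and −0.73 (adjusted p = 0.0273 and 0.0356). The complement count was 1 or 2 without peritoneal replicate 1, 2 or 3 or subcutaneous replicate 2, 3, 4 or 5.

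**Figure D4:**
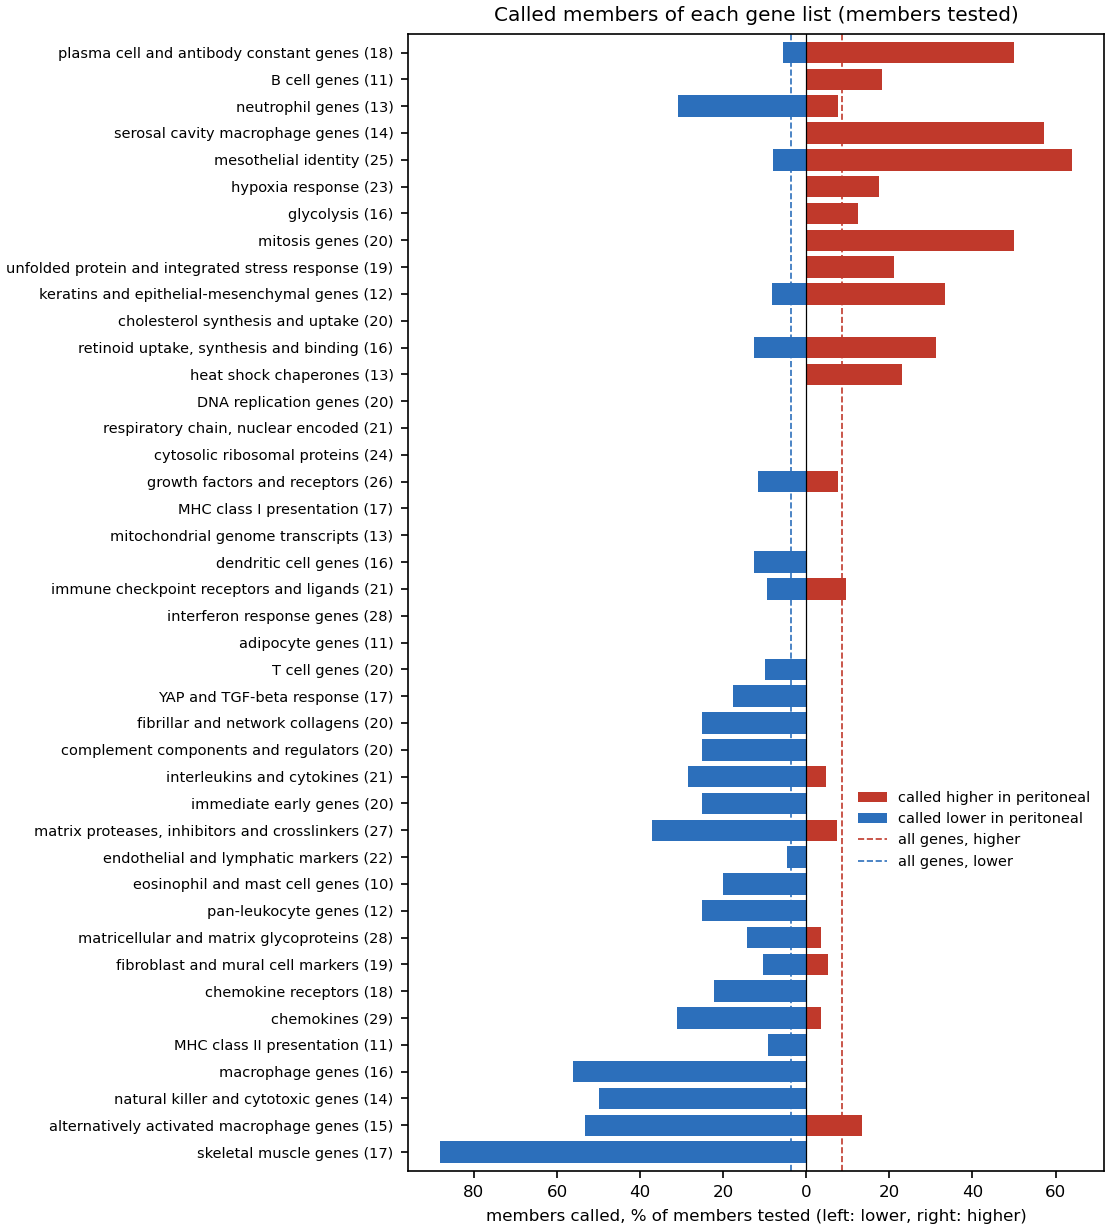
Bars give, for each of 42 gene lists with at least 10 members tested (number in brackets), the percentage of tested members called higher (red, to the right) or lower (blue, to the left) in peritoneal tumours, ordered by median log2 fold change. Dashed lines mark the 8.52% higher and 3.64% lower of all genes tested. Mesothelial and serosal cavity macrophage lists reach farthest to the right and skeletal muscle farthest to the left.

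Mitosis genes were called higher by small amounts, and DNA replication genes were not called. Of 20 mitosis genes 10 rose and 0 fell (median log2FC 0.19), where 8.52% of all genes rose. All 20 fold changes were positive. Mki67, the proliferation antigen, was at 105, 104, 94.9, 94 and 96.4 TPM in peritoneal tumours, against 79, 64.6, 88.6, 81.5 and 85.5 TPM in subcutaneous tumours. The groups did not overlap (log2FC 0.31, SE 0.0733, adjusted p = 0.0152). The kinesin Kif11 measured 37.4 ± 1.64 TPM in peritoneal tumours and 31.8 ± 2.35 TPM in subcutaneous tumours (log2FC 0.23, SE 0.0501, adjusted p = 0.00946), the topoisomerase Top2a 248 ± 18.1 TPM in peritoneal tumours and 209 ± 12.3 TPM in subcutaneous tumours (log2FC 0.25, SE 0.055, adjusted p = 0.0114), and Cdc20, an activator of the anaphase-promoting complex, 128 ± 5.98 TPM in peritoneal tumours and 112 ± 2.85 TPM in subcutaneous tumours (log2FC 0.18, SE 0.0416, adjusted p = 0.0136). The count of 10 was 2 with median-of-ratios scaling, where Top2a and Cdc20 were not called (adjusted p = 0.0593 and 0.2), and 5 with quantile normalization. It was 4 when peritoneal replicate 1 or 3 or subcutaneous replicate 2 was left out, 5 when peritoneal replicate 2 was, and 6 when subcutaneous replicate 1, 4 or 5 was. Of 20 DNA replication genes 0 were called (median 0.06). In sorted cells 9 of the 20 mitosis genes were higher and 0 lower, with Cdc20 at 123 ± 16.4 TPM in peritoneal sorted cells and 72 ± 7.91 TPM in subcutaneous sorted cells (log2FC 0.76, adjusted p = 0.000318). Higher genes of sorted cells numbered 587 of 12357 in all.

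Of 23 hypoxia genes 4 rose and 0 fell (median log2FC 0.42), where 8.52% of all genes rose, and of 16 glycolysis genes 2 rose (median 0.27), or 1 with median-of-ratios scaling or without peritoneal replicate 2. Egln3, an oxygen-sensing prolyl hydroxylase that is itself induced by hypoxia, was at 3.9, 5.92, 5.84, 9.77 and 4.31 TPM in peritoneal tumours, against 0.602, 2.15, 2.64, 0.887 and 2.34 TPM in subcutaneous tumours (log2FC 1.37, SE 0.338, adjusted p = 0.0189). Car9, a carbonic anhydrase used as a hypoxia marker, was at 20.1, 66.6, 34.7, 62.7 and 28.6 TPM in peritoneal tumours, against 5.07, 14.2, 15.6, 5.37 and 22.9 TPM in subcutaneous tumours, with overlap (log2FC 1.74, SE 0.485, adjusted p = 0.0319). In sorted cells Car9 averaged 67.1 ± 24.2 TPM in peritoneal sorted cells and 23 ± 6.14 TPM in subcutaneous sorted cells (log2FC 1.47, adjusted p = 0.00155). Bnip3, a mitochondrial protein of mitophagy, and P4ha1, a collagen prolyl hydroxylase, were called with overlapping groups (log2FC 1.17, adjusted p = 0.0493, and log2FC 0.52, adjusted p = 0.0443), and lost the call in 15 and 12 of 20 alternative fits. Bnip3 was singled out after its values were seen. Vegfa, the angiogenic factor, was not called (log2FC 0.28, 95% interval −0.11 to 0.67, adjusted p = 0.314). Pfkl, a phosphofructokinase subunit, measured 85.7 ± 16.2 TPM in peritoneal tumours and 49.2 ± 12.4 TPM in subcutaneous tumours (log2FC 0.80, SE 0.184, adjusted p = 0.013), and Tpi1, triosephosphate isomerase, 789 ± 92.4 TPM in peritoneal tumours and 568 ± 70.0 TPM in subcutaneous tumours (log2FC 0.47, SE 0.119, adjusted p = 0.0204). The hypoxia count of 4 was 2 with either rescaling of libraries. It was 1 without peritoneal replicate 2, 3 or 4 or subcutaneous replicate 1, 2 or 4, and 2 without peritoneal replicate 7 or subcutaneous replicate 5.

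The promoter of Car9 is shown because Car9 had the largest log2FC of the hypoxia list. It is the 250 bases before the RefSeq start on GRCm38.p6, chr4:43506776-43507025 (+ strand), 5′ to 3′ on the strand of the gene. Capitals mark the core of a hypoxia response element, ACGTG, searched on both strands and here found as its complement CACGT from 18 to 14 bases before the start.
Car9: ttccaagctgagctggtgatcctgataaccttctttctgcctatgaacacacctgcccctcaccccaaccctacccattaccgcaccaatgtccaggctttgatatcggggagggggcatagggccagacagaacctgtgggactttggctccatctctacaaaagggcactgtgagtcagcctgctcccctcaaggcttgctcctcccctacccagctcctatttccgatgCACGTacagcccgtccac
The core was in the windows of 14 of 20 hypoxia genes with a RefSeq window, Egln3, Bnip3 and P4ha1 among them, and in 18.5% of 27025 genes. It is short enough to occur often, and the match is no sign that it is bound.

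Stress and signalling genes gave small changes. Of 19 genes of the unfolded protein and integrated stress responses 4 rose and 0 fell (median log2FC 0.17), where 8.52% of all genes rose. The count of 4 moved by less than 1.5 times without any single library. The endoplasmic reticulum chaperone Hsp90b1 was at 631, 616, 702, 693 and 663 TPM in peritoneal tumours, against 529, 436, 507, 508 and 544 TPM in subcutaneous tumours (log2FC 0.39, SE 0.0681, adjusted p = 0.00291). The disulfide isomerase Pdia4 measured 167 ± 6.17 TPM in peritoneal tumours and 134 ± 7.13 TPM in subcutaneous tumours (log2FC 0.32, SE 0.0505, adjusted p = 0.00149), and the stress sensor Sesn2 23.6 ± 1.94 TPM in peritoneal tumours and 18 ± 1.54 TPM in subcutaneous tumours (log2FC 0.38, SE 0.0888, adjusted p = 0.0152). For these 3 the groups did not overlap, as was so for 12.5% of all genes. In sorted cells none of the 3 was called (log2FCs of 0.22 for Pdia4, −0.084 for Hsp90b1 and −0.43 for Sesn2). Of 13 heat shock genes 3 rose, with a median log2FC of 0.071 that was −0.0081 with median-of-ratios scaling. Hsph1 measured 78.3 ± 9.17 TPM in peritoneal tumours and 56.2 ± 3.39 TPM in subcutaneous tumours (log2FC 0.46, SE 0.101, adjusted p = 0.00992), and the collagen chaperone Serpinh1 641 ± 77.9 TPM in peritoneal tumours and 505 ± 28.7 TPM in subcutaneous tumours (log2FC 0.33, SE 0.0872, adjusted p = 0.0238). The third, Hspa1b, lost its call in 14 of 20 alternative fits (log2FC 0.35, adjusted p = 0.0456). The heat shock count of 3 was 1 with median-of-ratios scaling or without peritoneal replicate 3.

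Of 20 immediate early genes 5 fell and 0 rose (median log2FC −0.26), where 3.64% of all genes fell. Negative fold changes numbered 19 of 20. The phosphatase Dusp2 measured 4.34 ± 1.09 TPM in peritoneal tumours and 7.35 ± 0.75 TPM in subcutaneous tumours (log2FC −0.66, SE 0.125, adjusted p = 0.00475), the zinc finger factor Egr2 3.81 ± 0.634 TPM in peritoneal tumours and 6.66 ± 1.42 TPM in subcutaneous tumours (log2FC −0.66, SE 0.133, adjusted p = 0.00693), and Fos 41.7 ± 4.01 TPM in peritoneal tumours and 53.8 ± 5.07 TPM in subcutaneous tumours (log2FC −0.36, SE 0.0844, adjusted p = 0.015). Fos had a lowest subcutaneous value of 49.7 TPM, above the highest peritoneal value of 47 TPM. In sorted cells Fos averaged 614 ± 71.2 TPM in peritoneal sorted cells and 952 ± 280.1 TPM in subcutaneous sorted cells (log2FC −0.57, adjusted p = 0.106), many times its level in the separately normalized table of whole tumours, and Egr2 5.26 ± 2.75 TPM in peritoneal sorted cells and 31.4 ± 11.9 TPM in subcutaneous sorted cells (log2FC −2.37, adjusted p = 0.000816). Sorted cells were preserved after sorting and whole tumours as tissue, per the labels' protocols, and the part of this handling in the higher level of these genes was not tested.

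Of 26 growth factor genes 2 were higher and 3 lower. The higher share was near the 8.52% of all genes, and 3.64% of all genes were lower. Igf1, insulin-like growth factor 1, was at 29.9, 20.9, 25, 24.6 and 35.5 TPM in peritoneal tumours, against 7.45, 10.1, 6.64, 12.7 and 11.3 TPM in subcutaneous tumours. Peritoneal values were all above subcutaneous ones (log2FC 1.42, SE 0.31, adjusted p = 0.0101), while sorted cells held little of it (1.25 ± 0.898 against 1.5 ± 0.607 TPM, log2FC −0.21, adjusted p = 0.633). Ereg, an epidermal growth factor receptor ligand, measured 9.23 ± 2 TPM in peritoneal tumours and 17.5 ± 2.43 TPM in subcutaneous tumours (log2FC −0.87, SE 0.213, adjusted p = 0.0184), and Fgf7, a fibroblast factor for epithelia, 15.4 ± 1.69 TPM in peritoneal tumours and 21.3 ± 2.32 TPM in subcutaneous tumours (log2FC −0.44, SE 0.105, adjusted p = 0.0154). Ereg lost its call without peritoneal replicate 2 (adjusted p = 0.0504). The other gene that rose was Gdf15, a stress-induced factor (log2FC 0.55, adjusted p = 0.0347), and the number of higher genes was 1 with either rescaling and without peritoneal replicate 1, 2 or 3 or subcutaneous replicate 1, 2, 4 or 5. Igfbp3, an insulin-like growth factor binding protein singled out after its values were seen, overlapped between the groups (51.5 ± 12.4 against 78.8 ± 21.9 TPM; log2FC −0.60, SE 0.177, adjusted p = 0.04) and lost its call in 11 of 20 alternative fits. In sorted cells Igfbp3 averaged 3.19 ± 2.45 TPM in peritoneal sorted cells and 35.5 ± 8.54 TPM in subcutaneous sorted cells (log2FC −3.29, adjusted p = 1.52e-05). Of 17 YAP and TGF-beta response genes 3 fell, and the clearest was Tgfbi, an adhesion protein induced by TGF-beta (133 ± 27.7 against 241 ± 22.8 TPM; log2FC −0.88, SE 0.168, adjusted p = 0.00519). The other 2, the receptor kinase Axl and the adaptor Ajuba, lost their calls in 11 of 20 alternative fits each (log2FC −0.30, adjusted p = 0.0403, and log2FC −0.18, adjusted p = 0.0405). The count of 3 was 1 without any single library other than peritoneal replicate 4 and subcutaneous replicate 2, where it was 2, and 5 with median-of-ratios scaling.

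Tumour suppressors lost in mesothelioma gave 2 higher genes of 9, both from the Cdkn2 locus. The share of all genes that rose was 8.52%. Cdkn2a, which encodes p16 and p19ARF, was at 2.02, 1.27, 1.24, 1.41 and 1.66 TPM in peritoneal tumours, against 0.86, 0.537, 0.906, 0.841 and 0.812 TPM in subcutaneous tumours (log2FC 0.49, SE 0.11, adjusted p = 0.0123). The neighbouring Cdkn2b measured 1.5 ± 0.199 TPM in peritoneal tumours and 0.912 ± 0.199 TPM in subcutaneous tumours (log2FC 0.39, SE 0.108, adjusted p = 0.0305) and lost its call in 10 of 19 alternative fits. Neither was among the genes listed for sorted cells, which does not show absence. Nf2 and Bap1 had log2FCs of 0.038 and 0.12 and were not called. The median of the list, 0.038, was −0.04 with median-of-ratios scaling and −0.0036 with quantile normalization.

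Markers of tissues that border each site were measured in the same libraries. Skeletal muscle genes fell in 15 of 17 tested (median log2FC −3.01), where 3.64% of all genes fell. Skeletal actin, Acta1, was at 0.203, 0.244, 0.323, 0.0938 and 0.0906 TPM in peritoneal tumours, against 191, 411, 19, 144 and 147 TPM in subcutaneous tumours (log2FC −6.75, SE 1.27, adjusted p = 0.00478). The fast myosin Myh4 was listed at 0 in all 5 peritoneal libraries, against 13.8, 45.2, 2.36, 15.9 and 9.79 TPM in subcutaneous tumours (adjusted p = 0.00144). The troponin Tnnc2 measured 0.0659 ± 0.0803 TPM in peritoneal tumours and 54.4 ± 50.5 TPM in subcutaneous tumours (log2FC −5.16, SE 1.03, adjusted p = 0.00645), and Mybpc2, a muscle myosin-binding protein outside the list, 0.112 ± 0.0414 TPM in peritoneal tumours and 7.54 ± 6.11 TPM in subcutaneous tumours (log2FC −2.64, SE 0.578, adjusted p = 0.0102). Subcutaneous replicate 2 was highest and replicate 3 lowest for all 4 genes. The count of 15 was 8 without subcutaneous replicate 2. The summed level of the list was 17 to 19.3 TPM in peritoneal tumours, against 85.7 to 1532 TPM in subcutaneous tumours. Its part in the other lower genes was not tested. No gene of 11 adipocyte markers was called (Adipoq 3.37 ± 1.47 against 5.38 ± 4.95 TPM, log2FC −0.21, adjusted p = 0.849).

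Of 14 skin markers 3 could be tested and 0 were called. The galectin Lgals7 made up most of the summed level of that list, at 137 ± 15.9 TPM in peritoneal tumours and 149 ± 16.6 TPM in subcutaneous tumours, while the basal keratin Krt5 was at or below 0.017 TPM in all 10 libraries. Lgals7 was singled out after its values were seen. Of 23 markers of pancreas, liver and gut 4 could be tested and 0 were called, and the pancreatic trypsin gene Prss1 was listed at 0 throughout. Of 13 ovarian and reproductive tract markers 7 could be tested and 2 rose, where 8.52% of all genes rose. Esr1, the oestrogen receptor, was at 9.9, 10.6, 9.26, 8.92 and 10.7 TPM in peritoneal tumours, against 7.31, 5.5, 7.22, 7.49 and 7.34 TPM in subcutaneous tumours (log2FC 0.45, SE 0.106, adjusted p = 0.015), and it was also expressed in sorted cells (6.85 ± 2.59 against 6.86 ± 1.19 TPM, log2FC −0.065, adjusted p = 0.87). Star, a steroid-making gene, measured 1.46 ± 0.34 TPM in peritoneal tumours and 0.834 ± 0.133 TPM in subcutaneous tumours (log2FC 0.41, SE 0.121, adjusted p = 0.038) and lost its call in 12 of 19 alternative fits. Of 15 nerve and glia markers 5 could be tested and 2 rose, or 1 with either rescaling or without any single library other than peritoneal replicate 4. Calcb, which encodes a calcitonin gene-related peptide, was at 4.08, 4.09, 2.82, 3.06 and 2.61 TPM in peritoneal tumours, against 0.56, 1.51, 0.807, 1.82 and 0.814 TPM in subcutaneous tumours (log2FC 1.06, SE 0.212, adjusted p = 0.00648). Calcb averaged 8.28 ± 1.93 TPM in peritoneal sorted cells and 2.41 ± 0.781 TPM in subcutaneous sorted cells (log2FC 1.45, adjusted p = 0.00229). The median of the nerve list, 0.044, was −0.031 with median-of-ratios scaling.

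The sorted samples, gated on mCherry and against CD45, give the same contrast in a separate table. There 1369 of 12357 genes were called (11.1%), 587 higher and 782 lower in peritoneal cells. Among 11952 genes tested in both tables, 1108 were higher in whole peritoneal tumours and 569 in peritoneal sorted cells. They shared 110, which is 9.93% of the whole tumour set and 19.3% of the sorted set. Beside these shares stand 569 and 1108 of all 11952 genes. Lower genes numbered 318 in whole tumours and 762 in sorted cells and shared 119, which is 37.4% and 15.6% of the sets. Here the numbers to set beside the shares are 762 and 318 of the 11952 genes. In opposite directions 9 genes were higher in whole tumours and lower in sorted cells, and 1 was the reverse. Markers of host cells were also lower in peritoneal sorted samples: 8 of 10 endothelial (median log2FC −1.13), 7 of 13 fibroblast and mural (−0.91) and 2 of 11 pan-leukocyte genes (−1.24), while 0 of 12 macrophage genes were called (−1.61). Of 13 transcripts of the mitochondrial genome 12 were lower there (median −1.27), against 0 called in whole tumours. The part of host cells and of mitochondrial transcripts in the sorted values was not tested. Tables were normalized separately, and whether the sorted cells came from the same animals is not stated. The sorted count was 758, 843 and 787 without peritoneal replicate 2, subcutaneous replicate 1 or subcutaneous replicate 5.

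**Figure D5:**
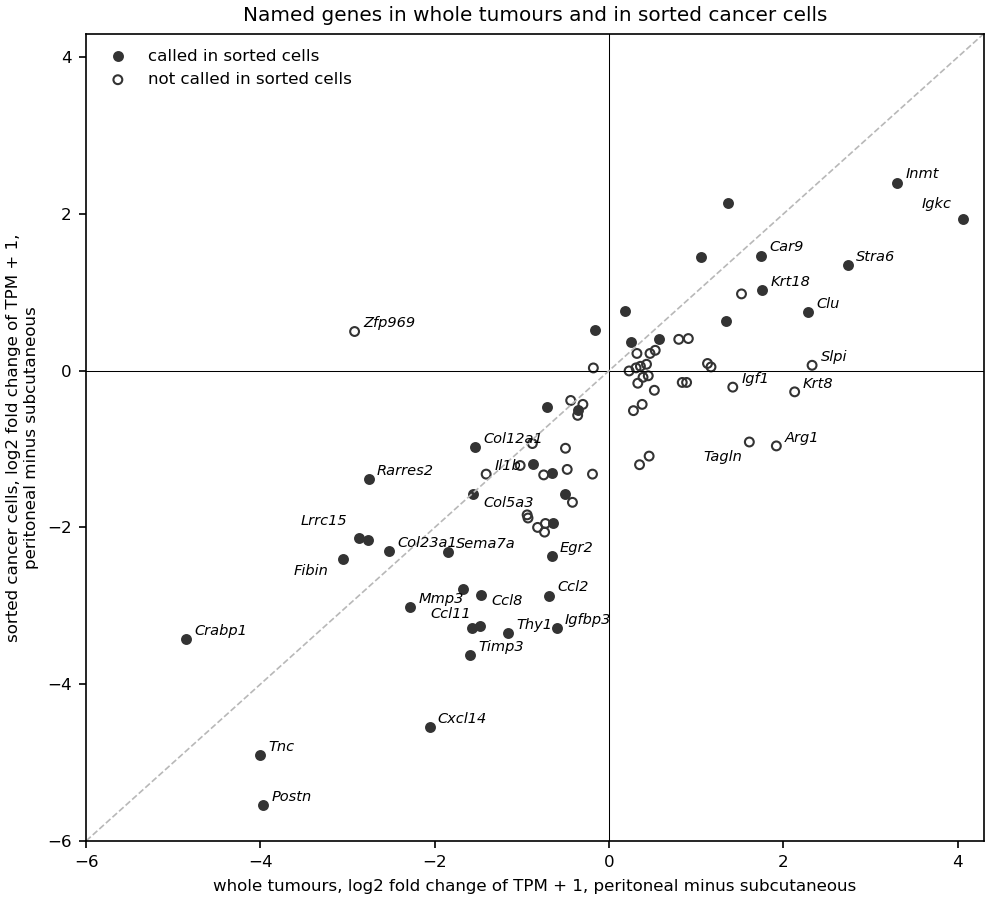
Each point is 1 of 86 named genes with a value in both tables. The x axis is the log2 fold change in whole tumours and the y axis that in sorted cancer cells, both peritoneal minus subcutaneous of log2(TPM + 1), with a dashed line of equality. Filled points (41) are called in sorted cells. Postn, Tnc, Cxcl14 and Crabp1 are lower in both, Inmt, Stra6 and Igkc are higher in both, and Slpi, Krt8 and Arg1 are called in whole tumours and not in sorted cells.

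Peritoneal tumours were also set against pleural tumours, the other serosal site, to test directly where the 2 cavities differ. Of 15054 genes 8 were called (0.0531%), 4 higher and 4 lower, and 1673 had an unadjusted p below 0.05. Ccl11 averaged 13.6 ± 2.19 TPM in peritoneal tumours (n = 5) and 4.71 ± 1.79 TPM in pleural tumours (n = 6; log2FC 1.40, SE 0.212, adjusted p = 0.0435), and 40.7 ± 10.8 TPM in subcutaneous tumours. Its order was therefore subcutaneous, peritoneal, pleural from high to low, and no 2 of the groups overlapped. Cnfn, cornifelin, was higher in peritoneal than in pleural tumours (1.96 ± 1.15 against 0.209 ± 0.255 TPM; log2FC 1.25, adjusted p = 0.0435), and Ccn2, a matrix-associated growth factor, was lower (73.1 ± 7.14 against 137 ± 27.7 TPM; log2FC −0.88, adjusted p = 0.0455). Both were chosen after their values were seen. The count was 0 without peritoneal replicate 1, 3 or 7 or pleural replicate 4 or 5, 1 without peritoneal replicate 2 or pleural replicate 1 or 2, 4 without peritoneal replicate 4, and 33 without pleural replicate 3.

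The other genes given values here, apart from these, were not called between the 2 cavities, and a missed threshold does not show equal levels. Stra6 was at 5.12 to 19.8 TPM in pleural tumours (peritoneal minus pleural log2FC 1.07, SE 0.258, adjusted p = 0.165) and Crabp1 at 0.055 to 0.609 TPM (log2FC −0.28, SE 0.248, adjusted p = 0.691). Inmt was at 10.7 to 31.8 TPM (log2FC 0.33, SE 0.242, adjusted p = 0.637), and Tnc at 2.18 to 8.56 TPM (log2FC 0.58, SE 0.258, adjusted p = 0.417). Alox15 spanned 1.29 to 10.8 TPM in pleural tumours, and its difference fell short of the threshold (log2FC 2.06, SE 0.372, adjusted p = 0.079). Krt8 also fell short of it, at 0.835 to 15.3 TPM (log2FC 2.53, SE 0.496, adjusted p = 0.0936).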

How the data were processed

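Values of whole tumours and of sorted cells were deposited by the authors as 2 tables of TPM per gene, made from 50 bp single-end reads with kallisto and GRCm39 per the submitters' processing notes. Read counts, and so the depth of each library, are not known from TPM. The library number and the spread between libraries set the precision here. The labels number the mice and do not say more of how samples were drawn, so p-values measure the spread between these samples. The members and gene lists were chosen with earlier results of these data known.

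The table of whole tumours held 54456 entries, of which 18074 were at 0 throughout. Genes that reached 1 TPM in 5 or more libraries entered the test, on log2(TPM + 1), with limma 3.58.1 (trended empirical Bayes) in R 4.3.3, with the 3 sites in 1 fit, and p-values were adjusted by Benjamini-Hochberg. Sorted cells were fitted separately, without 17 date-like names (0.0684 to 0.105% of TPM). The code was tested on simulated data. Tables were handled in Python 3.11.15 with pandas 2.3.3 and numpy 2.4.6.

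Named genes were the 12 with the largest log2FC in each direction, taken from non-overlapping called genes whose higher mean was 5 TPM or more, and the 6 with the smallest adjusted p in each direction, leaving out predicted names, antibody segments, Mup genes and the skeletal muscle list. To these were added the 3 called members of each of 48 lists with the smallest adjusted p and a fixed set of 12. A further 20 were named after their values were seen, as were the list members given with a log2FC alone. Some genes that meet these rules are not reported here.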

Additional observations from a re-analysis of the deposited data

Results flagged for a closer look

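Among 149 named genes, 129 by the naming rules and 20 after their values were seen, 18 had a library that stood far from the rest of its group of 5 by Dixon's criterion on the log2(TPM + 1) scale. Chance alone flags about 1 in 20 groups, and these come from 2 groups for each gene. The number flagged was near that of chance. Peritoneal replicate 4 was the lowest of its group for Sema7a (9.67 TPM) and Wt1 (3.09 TPM), and the highest for Zfp969 (1.42 TPM) and Krt18 (15 TPM). Peritoneal replicate 2 was the lowest for Timp3 (11.1 TPM) and the highest for Brinp3 (0.248 TPM). Peritoneal replicate 7 was the highest for Ccr7 (7.55 TPM) and Cd4 (6.91 TPM).

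Subcutaneous replicate 2, the library with the most muscle RNA, was the lowest of its group for Top2a (187 TPM), Cdkn2a (0.537 TPM), Esr1 (5.5 TPM), Cd8a (8.63 TPM) and Pdcd1 (4.78 TPM). Subcutaneous replicate 1 was the lowest for Cd209g (4.28 TPM), Sdc1 (73.9 TPM) and Krt8 (1.44 TPM), and the only one with Upk3b above 0 (0.00856 TPM). Subcutaneous replicate 3 was the lowest for Aldh1a1 (1.47 TPM).

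Ccl11 differed between the 2 serosal sites under the direct test, with a peritoneal minus pleural log2FC of 1.40 (adjusted p = 0.0435), while both were below subcutaneous tumours.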

How the results depend on the processing

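The count of 1831 genes called between peritoneal and subcutaneous tumours was 1164 without a filter on low values and 477 at an adjusted p below 0.01, and ran from 934 to 2013 when single libraries were left out. Its 1283 higher genes were 758 without a filter, 638 with median-of-ratios scaling, 729 with quantile normalization and 301 at 0.01 (558 to 1512 without single libraries). Its 548 lower genes were 868 with median-of-ratios scaling and 176 at 0.01 (336 to 563 without single libraries). The 266 genes at 2-fold or more were 408 with a pseudocount of 0.1, 147 with a filter of 5 TPM and 149 at 0.01 (207 to 271 without single libraries). The cause of these shifts was not tested. No called gene among those named reversed its direction under any alternative. Named genes that were not called, such as Cd8a with a log2FC near 0, are outside that statement.

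The 8 genes called between peritoneal and pleural tumours were 0 with a pseudocount of 0.1, with the 5 TPM filter and at 0.01, 4 with median-of-ratios scaling and 5 with robust empirical Bayes (0 to 33 without single libraries). The 1369 genes of sorted cells were 2486 with quantile normalization and 432 at 0.01 (758 to 1606 without single libraries). The difference in genes at 1 TPM or more was 191 to 305 when single libraries were left out. Without peritoneal replicate 3 (304) or subcutaneous replicate 4 (305) its exact permutation p was 0.0317.

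With the replicate number as a block, 656 genes were called between peritoneal and subcutaneous tumours (424 higher, 232 lower), and 0 between peritoneal and pleural tumours. Samples with the same number did not deviate together in every pair (correlations 0.084, 0.086, 0.12 and −0.038), so these mouse numbers were not taken to pair the samples. The library names number the same peritoneal tumours 1, 3, 4, 5 and 7, and by that numbering the correlations were 0.084, 0.028, −0.21 and 0.062. No block was fitted on it.

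TPM hold no depth, so genes near or below 1 TPM have an unknown counting error.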
